A study of Mus musculus with 8 samples.

Results

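Chromatin accessibility was examined at 10 genes of Toll-like receptor (TLR) signalling in mouse alveolar macrophages (AMs) with and without retinoid X receptors (RXRs). The genes were the receptors Tlr1, Tlr2, Tlr4, Tlr6 and Tlr9, the co-receptors Cd14 and Ly96, the adaptors Myd88 and Ticam1, and the inhibitory kinase gene Irak3. Their regions were all accessible sites (ATAC-seq peaks) that overlapped a gene body or its 20 kb flanks, merged across libraries where peaks shared a base. This gave 89 merged regions, of which 11 had a peak in a single library. The other 78 were seen in at least 2 libraries and are called consensus regions, out of 72711 in the whole series.

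AMs were sorted from the bronchoalveolar lavage of adult C57BL/6J mice. The study's text describes the cells compared as mature AMs, although legends of some of its panels name the KO cells as immature AMs. The 4 KO libraries came from mice with the genotype CD11cCre+ Rxrabfl/fl, in which a Cre driven by CD11c deletes Rxra and Rxrb in CD11c-expressing cells. The 4 WT libraries came from CD11cCre- Rxrabfl/fl controls, so both groups carried the floxed alleles and only KO carried the Cre. Nuclei were tagmented with Tn5, which cuts accessible DNA, and peaks were called in each library. The study counts each library as a sample of its genotype, without saying whether each came from a different animal, which matters most for replicates 1_2 and 1_3. Sex is not given per library, mice of both sexes were used in the study, and regions of Xist differed between the genotypes, so a difference in sex cannot be told apart from the genotype in any comparison below. The p-values measure the spread between these libraries, which may be partly technical.

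TLRs sense microbial molecules. TLR2 pairs with TLR1 or TLR6 at the cell surface to bind bacterial lipopeptides, TLR4 binds lipopolysaccharide with the help of CD14 and MD-2 (the product of Ly96), and TLR9 senses unmethylated CpG DNA in endosomes. The adaptor MyD88 carries the signal of nearly all TLRs, TRIF (the product of Ticam1) carries an interferon-inducing branch of TLR4, and IRAK-M (the product of Irak3) restrains MyD88 signalling in macrophages. AMs meet inhaled microbes first and are known for a restrained response to many of them.

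The peak lists held 60363 to 65009 peaks in KO and 61240 to 72484 in WT. Summit tags, the read ends piled up over 200 bp at the top of a peak, were worked back from each peak's fold enrichment and p-value, and the smallest peaks rested on 6 to 9 of them. Over the regions shared by all 8 libraries, the median was 57 to 68 summit tags in the KO libraries and 60 to 91 in the WT libraries, and WT replicate 1_3 had the highest. Values in tags are raw, and fold changes were taken after each library had been centred on its own median. As a check of the labels, regions of the deleted genes were examined. An intronic Rxra region (chromosome 2, 27744546 to 27744950) had a peak in 4 of 4 WT and 0 of 4 KO libraries. Its position relative to the floxed segment was not examined. No other region of Rxra or Rxrb had this pattern. In the limma test described below, no Rxrb region passed. Of the Rxra regions only another intronic one (27693685 to 27694128) did, with more tags in KO (log2 fold change 0.36, limma adjusted p = 0.0443). Promoter peaks of the AM markers Siglecf, Marco, Pparg, Itgax, Ear2 and Car4 were present in all 8 libraries and that of Chil3 in 0. Of the markers of other cells reported here, Ly6g, Cd3e and Sftpc had a promoter peak in 0 libraries, Ccr2 in 2 (KO replicate 3 and WT replicate 3), Col1a1 in 7, and Ly6c2, S100a8, Epcam and Pecam1 in 8. In such bulk libraries a change in the mix of cells and a change in accessibility within each cell cannot be told apart.

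The sequences on which the results below turn are given here as plus-strand reference bases around the strongest summit, cut back where the window ran into an annotated exon. Capitals mark matches to the motifs described later. The first pair holds the only regions of the 10 genes that passed the test between genotypes, both 3′ of Tlr9 in an intron of its neighbour Alas1. In the region with more tags in KO, the capitals are an IRF match. In the region with fewer tags in KO they are, in order, an RBPJ and a CEBP match.
Tlr9 window, more tags in KO, chr9:106236278-106236439, plus strand: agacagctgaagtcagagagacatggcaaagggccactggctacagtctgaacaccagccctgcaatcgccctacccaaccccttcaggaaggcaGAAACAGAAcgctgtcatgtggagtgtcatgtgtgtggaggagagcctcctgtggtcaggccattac
Tlr9 window, fewer tags in KO, chr9:106242885-106243085, plus strand: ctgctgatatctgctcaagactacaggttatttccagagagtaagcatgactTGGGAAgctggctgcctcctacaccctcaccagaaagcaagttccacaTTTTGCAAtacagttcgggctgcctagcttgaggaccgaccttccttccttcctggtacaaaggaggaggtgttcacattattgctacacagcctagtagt
The next pair holds the only DR1 matches among the 78 regions. DR1 is the direct repeat that RXR heterodimers with PPARγ are known to bind. The first lies directly upstream of the Tlr4 start and the second, which also holds an AP-1 match at each of 2 places, lies 3′ of Ticam1.
Tlr4 promoter, chr4:66827442-66827583, plus strand: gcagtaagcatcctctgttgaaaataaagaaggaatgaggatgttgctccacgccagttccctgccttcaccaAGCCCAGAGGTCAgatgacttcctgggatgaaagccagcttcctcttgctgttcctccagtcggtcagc
Ticam1, 3′ side, chr17:56265965-56266165, plus strand: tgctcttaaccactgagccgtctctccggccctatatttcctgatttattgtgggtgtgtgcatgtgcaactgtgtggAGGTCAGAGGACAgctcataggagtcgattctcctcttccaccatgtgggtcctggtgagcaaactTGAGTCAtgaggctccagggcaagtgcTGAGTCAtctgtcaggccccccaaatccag
The last set holds the Tlr9 promoter, with an AP-1 match in the part shown and a PU.1 match in the part cut away, and the 2 Tlr4 regions that had peaks in 3 WT libraries and in no KO library. Of these, the upstream region has an AP-1 match and the region at the 3′ end of the gene has no match to any motif searched.
Tlr9 promoter, chr9:106222472-106222597, plus strand: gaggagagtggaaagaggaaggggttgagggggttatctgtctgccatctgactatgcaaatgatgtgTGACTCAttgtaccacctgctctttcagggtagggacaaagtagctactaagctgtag
Tlr4, upstream, chr4:66816693-66816893, plus strand: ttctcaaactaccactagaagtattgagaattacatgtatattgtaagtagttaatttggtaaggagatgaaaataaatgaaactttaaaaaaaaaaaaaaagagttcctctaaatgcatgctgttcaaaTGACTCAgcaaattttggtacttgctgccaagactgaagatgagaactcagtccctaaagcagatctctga
Tlr4, last intron, chr4:66928734-66928934, plus strand: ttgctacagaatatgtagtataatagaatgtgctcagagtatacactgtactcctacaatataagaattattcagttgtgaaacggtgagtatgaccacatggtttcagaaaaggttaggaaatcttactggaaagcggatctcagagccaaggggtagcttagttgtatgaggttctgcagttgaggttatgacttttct

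The genotypes shared nearly all of the accessible sites of these genes. All 8 libraries had a peak at 64 of the 78 consensus regions (82.1%), and at 65.3% of those of the whole genome. None had a peak in every library of one genotype and no library of the other. Genome-wide, 0.82% of consensus regions had a peak in 4 of 4 WT and 0 of 4 KO libraries, and 0.285% had the reverse. The number of consensus regions with a peak was 68 to 74 per KO library and 69 to 77 per WT library, so the genotypes overlapped. By position, 22 regions lay within 1 kb of a transcript start, 29 in introns, 25 between genes and 2 in exons. For 43 of the 78 the nearest transcript start was that of the TLR gene itself, and for the others it was that of a neighbour. The 14 regions that lacked a peak in some libraries were 5 at Tlr4, 4 at Irak3, and 1 each at Tlr6, Tlr9, Cd14, Ly96 and Ticam1, while Tlr1, Tlr2 and Myd88 had none.

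**Figure D1:**
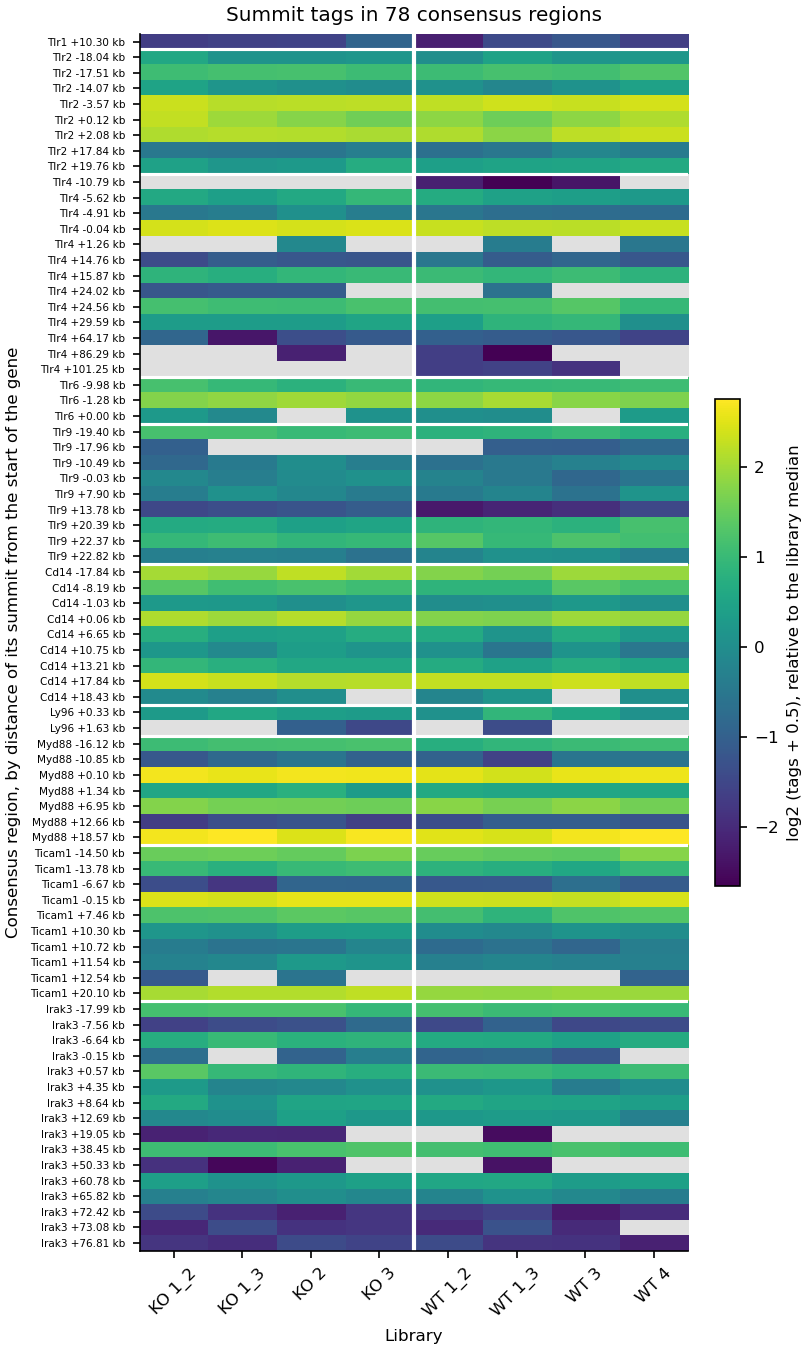
Rows are the 78 consensus regions, ordered by gene and by the distance of the summit from the start of the gene, and columns are the 4 KO and 4 WT libraries. Colour gives log2 (summit tags + 0.5) relative to the library median, and grey marks a library without a peak. Grey cells fill whole genotypes at 2 Tlr4 regions only, which had no KO peak.

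Summit tags could be compared between genotypes at the 64 regions found in every library, within a limma fit over 47499 such regions of the genome. Only 2 of the 64 passed an adjusted p of 0.05, 1 with fewer tags in KO and 1 with more, while 7.03% of all fitted regions passed as lower in KO and 5.81% as higher. A raw p under 0.05 was reached by 10 of the 64 with more tags in KO and by 1 with fewer, where 14.1% and 12.1% of all fitted regions reached it. The median log2 fold change (KO minus WT) was 0.05 over the 64 regions, against 0.04 over all fitted regions, with a range of -0.39 to 0.66. The KO and WT values did not overlap at 1 region with fewer and 5 with more tags in KO, against 7.91% and 8.25% of all fitted regions. For 54 of the 62 regions that were not called, the 95% confidence interval lay within a 1.5-fold change in either direction, and for all 62 it lay within a 2-fold change. The genome-wide balance of the calls depended on scaling. The share of calls that were lower in KO was 54.7%, and it was 77.6% when libraries were scaled by background tags instead of their median.

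**Figure D2:**
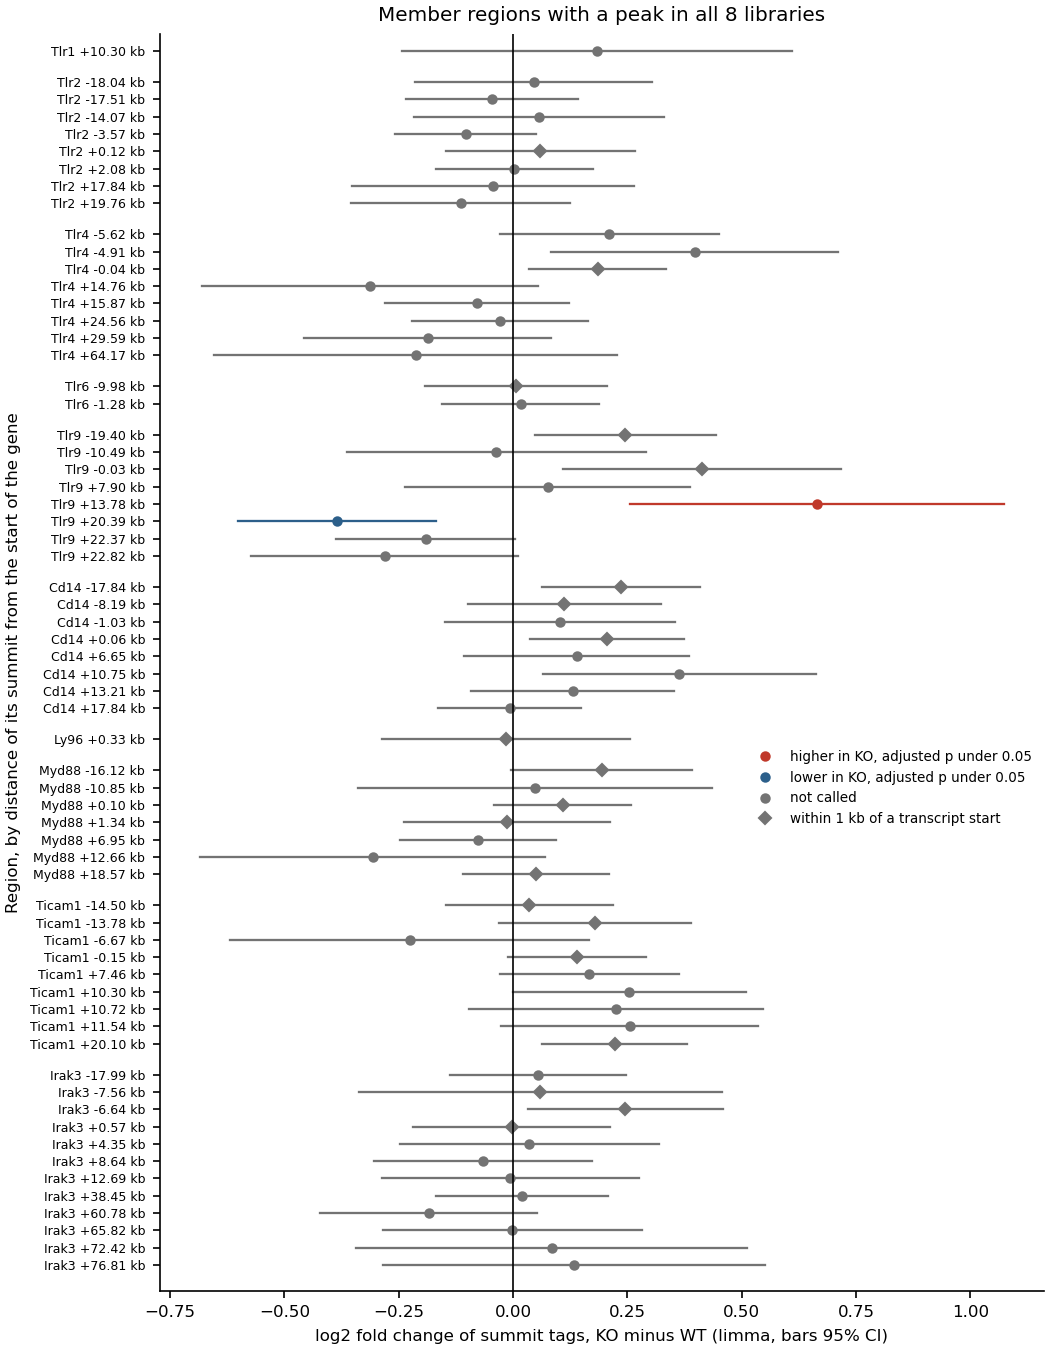
Points are log2 fold changes of summit tags (KO minus WT) with 95% confidence intervals from limma for the 64 regions found in every library, by gene and distance from its start, and diamonds lie within 1 kb of a transcript start. The red and blue points in the Tlr9 window are the 2 called regions, at 0.66 and -0.39.

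The 2 called regions of the Tlr9 window moved in opposite directions. Both were intronic in Alas1, the gene for an enzyme that starts haem synthesis, whose start was nearer to them than that of Tlr9. The first (chromosome 9, 106236123 to 106236565) was 13.8 kb downstream of the Tlr9 start. It had 24, 26, 25 and 27 tags in KO and 14, 21, 19 and 21 in WT, where KO values are listed for replicates 1_2, 1_3, 2 and 3 and WT values for replicates 1_2, 1_3, 3 and 4, as they are throughout. Every KO library was above every WT library, at a low level of accessibility (percentile 8.48 of the fitted regions). This was a log2 fold change of 0.66 ± 0.20 (SE, n = 4 libraries each), or 1.58-fold, with a limma adjusted p of 0.0226. The second (106242744 to 106243215), 20.4 kb downstream of the Tlr9 start, had 107, 108, 80 and 81 tags in KO and 127, 174, 131 and 137 in WT. All KO libraries were below all WT libraries, and the log2 fold change was -0.39 ± 0.11 (SE, n = 4 each; limma adjusted p = 0.0115).

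Each call was kept under some alternatives and lost under others. With quantile normalisation both were called (log2 fold changes 0.65 and -0.41, limma adjusted p = 0.0223 and 0.0072). Both were also called with a pseudocount of 5 and with a mean of at least 20 tags. With each library left out in turn, log2 fold changes ran from 0.54 to 0.81 and from -0.44 to -0.31. The first lost its call without KO replicate 3 (limma adjusted p = 0.0823), WT replicate 1_2 (0.0981) or WT replicate 1_3 (0.058), with log2 fold changes of 0.54 to 0.62, and when replicates 1_2 and 1_3 were counted as 1 sample (0.0582). The second lost its call without KO replicate 2 (limma adjusted p = 0.0615) or WT replicate 4 (0.0556), with log2 fold changes of -0.32 and -0.31. With scaling by background tags neither was called (limma adjusted p = 0.133 and 0.106), with log2 fold changes of 0.61 and -0.44.

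The other regions of the Tlr9 window followed no common direction. At the Tlr9 promoter (106222340 to 106222950) there were 62, 53, 58 and 60 tags in KO and 59, 66, 41 and 41 in WT. The genotypes overlapped once centred, and the log2 fold change of 0.41 ± 0.15 (SE, n = 4 each) did not pass (limma adjusted p = 0.0622, 95% confidence interval 0.11 to 0.72). It passed without KO replicate 1_3 (0.47, limma adjusted p = 0.0497), without WT replicate 1_2 (0.50, limma adjusted p = 0.04) and with replicates 1_2 and 1_3 counted as 1 sample (0.51, limma adjusted p = 0.0403). Its level was at percentile 41.6, the lowest of the 9 promoter regions compared. The strongest site of the window, 22.4 kb downstream in Alas1 (106244762 to 106245206), had 132, 141, 113 and 113 tags in KO and 177, 180, 177 and 130 in WT, with a log2 fold change of -0.19 ± 0.10 (SE, n = 4 each; limma adjusted p = 0.204).

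Among the surface receptors, none of the regions of Tlr1, Tlr2, Tlr4 and Tlr6 passed the limma test over all 8 libraries. Of their 19 fitted regions, 2 had an unadjusted p under 0.05, against 26.25% of all fitted regions, and both were at Tlr4. Tlr2 had 8 consensus regions, all with a peak in every library, and 3 of them were in the top 10% of the fitted regions by tags. Its promoter (chromosome 3, 83841116 to 83841894) had 326, 262, 206 and 173 tags in KO and 251, 269, 264 and 262 in WT. The KO libraries spanned the WT range, and the log2 fold change was 0.06 ± 0.10 (SE, n = 4 each; limma adjusted p = 0.759, 95% confidence interval -0.15 to 0.27). The strongest Tlr2 region lay 3.57 kb upstream (83844824 to 83845619) and had 344, 304, 276 and 269 tags in KO and 333, 474, 367 and 323 in WT. Its log2 fold change was -0.10 ± 0.08 (SE, n = 4 each; limma adjusted p = 0.411).

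Tlr4, the longest of the 10 genes, had 13 consensus regions, of which 8 were found in every library. The promoter region with the DR1 match (chromosome 4, 66827308 to 66827886) was its strongest site, at percentile 97.4. It had 365, 372, 322 and 315 tags in KO and 346, 423, 343 and 297 in WT. After centring, every KO library was above every WT library, but the difference was small, at 0.18 ± 0.07 log2 (SE, n = 4 each; limma adjusted p = 0.0948, 95% confidence interval 0.03 to 0.33). The other Tlr4 region without overlap lay 4.91 kb upstream (66822520 to 66822781), with 48, 52, 63 and 44 tags in KO and 48, 56, 44 and 35 in WT. Its log2 fold change was 0.40 ± 0.16 (SE, n = 4 each), which did not pass either (limma adjusted p = 0.0861). Genome-wide, 50.5% of intronic and 50.3% of exonic regions had positive log2 fold changes. In contrast to the regions upstream, all 5 fitted regions inside the Tlr4 gene body had negative ones, from -0.31 to -0.03, and none was called. Without WT replicate 4, an intronic one (66856995 to 66857447) passed as lower in KO (-0.36, limma adjusted p = 0.0403), and it is named here after its value was seen. Of these, 4 lie beyond the end of the shorter Tlr4 transcript, in introns of a longer one.

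The Tlr4 locus also held the member regions nearest to a genotype-specific pattern. A region 10.8 kb upstream of the start (66816469 to 66816962) had a peak of 15, 14 and 14 tags in all WT libraries but replicate 4, and no peak in KO. A second, in the last intron 101.2 kb downstream (66928672 to 66928995), had 22, 30 and 20 tags in the same WT libraries and no peak elsewhere. These are 2 of 78 regions, where 1.43% of all consensus regions had peaks in 3 WT and 0 KO libraries. No member region had the reverse pattern, found in 0.47% of all consensus regions. Lists hold no value where a peak was not called, so it cannot be said how many tags the KO libraries had there. The smallest peaks of those 3 WT lists had 7, 9 and 7 tags.

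Tlr6 and Tlr1 lie side by side. At Tlr6, the region over the start itself (chromosome 5, 64959980 to 64960231) had a peak in 3 KO libraries, with 81, 62 and 61 tags, and 3 WT libraries, with 72, 91 and 75. The stronger region with its summit 1.28 kb upstream and its edge within 1 kb of the start (64960778 to 64961803) had 229, 243, 240 and 212 tags in KO and 252, 377, 259 and 199 in WT. The genotypes overlapped, with a log2 fold change of 0.02 ± 0.08 (SE, n = 4 each; limma adjusted p = 0.93), whose sign changed with scaling by background tags and with quantile normalisation. Tlr1 had no promoter peak in any library. Its only region (64922880 to 64923431), 3′ of the gene, had 21, 22, 20 and 30 tags in KO and 15, 33, 32 and 19 in WT. Its log2 fold change of 0.18 ± 0.21 (SE, n = 4 each; limma adjusted p = 0.629) rested on few tags and had the widest interval of the regions named by the rule, -0.24 to 0.61.

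**Figure D3:**
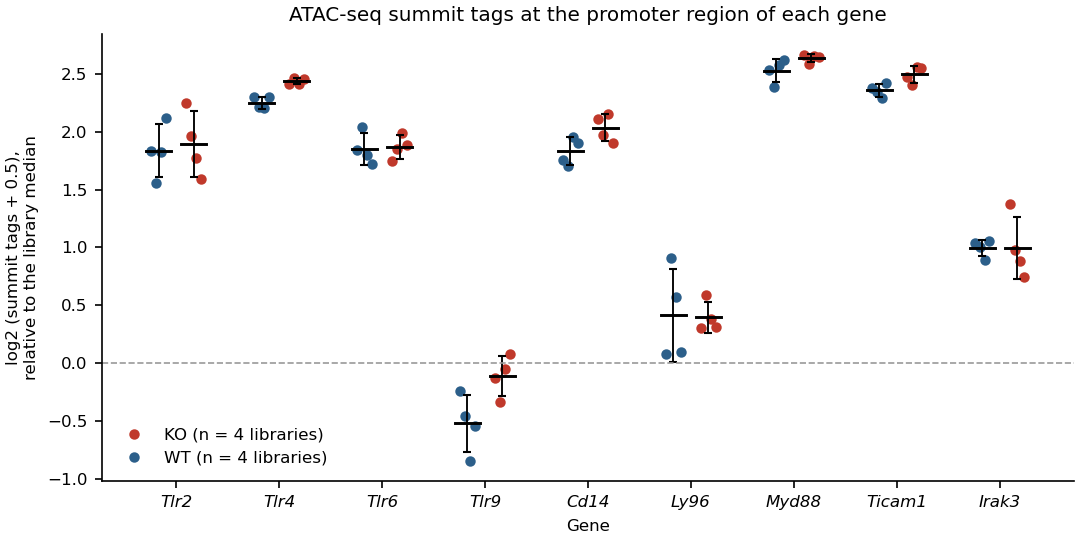
Points are the 4 KO and 4 WT libraries at the strongest region that reached within 1 kb of a start of each gene (Tlr1 had none), as log2 (summit tags + 0.5) relative to the library median. The Tlr6 region had its summit 1.28 kb upstream, and the summit of the Myd88 region lay nearest to the start of Acaa1a. Black lines and bars are the mean and SD, and the genotypes separate only at Tlr4, where all KO points lie above all WT points.

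The co-receptor genes kept their sites as well. Cd14, the receptor that hands lipopolysaccharide to TLR4, had 9 consensus regions in its window, 8 with a peak in every library. Its promoter (chromosome 18, 36726211 to 36727000) had 296, 265, 268 and 215 tags in KO and 238, 297, 289 and 226 in WT. Raw tags overlapped between genotypes, and so did centred tags. The log2 fold change was 0.21 ± 0.08 (SE, n = 4 each; limma adjusted p = 0.0984, 95% confidence interval 0.04 to 0.37). Of the 8 fitted Cd14 regions, 7 had positive log2 fold changes with each of the 3 scalings. With the main scaling, 57.6% of all fitted regions did. None of the 8 was called by limma, although 3 had an unadjusted p under 0.05, against 26.25% of all fitted regions. The Cd14 region with the most tags, 17.8 kb downstream (36708604 to 36709342), had 365, 333, 270 and 261 in KO and 339, 436, 376 and 285 in WT. Its log2 fold change was -0.01 ± 0.08 (SE, n = 4 each; limma adjusted p = 0.963).

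Ly96 had the fewest sites after Tlr1, with 2 consensus regions. Its promoter (chromosome 1, 16688048 to 16689118) had 84, 101, 78 and 71 tags in KO and 74, 171, 110 and 64 in WT. WT replicate 1_3 stood highest and WT replicate 4 lowest, so that the WT libraries enclosed all KO libraries. The log2 fold change was -0.02 ± 0.13 (SE, n = 4 each; limma adjusted p = 0.957, 95% confidence interval -0.29 to 0.26), and its sign changed when any of 5 libraries was left out, with values from -0.14 to 0.15.

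Among the promoter regions named by the rule, those of the adaptor genes were the most accessible, but for Myd88 this depended on the region taken. The region taken for Myd88 (chromosome 9, 119340876 to 119341577) stood at percentile 98.7 of the fitted regions. It lay at the 5′ end of the annotated gene, but the transcript start nearest to its summit was that of the neighbouring Acaa1a, at 0.013 kb. It had 433, 405, 381 and 359 tags in KO and 407, 479, 444 and 371 in WT, a log2 fold change of 0.11 ± 0.07 (SE, n = 4 each; limma adjusted p = 0.366, 95% confidence interval -0.04 to 0.26). A still stronger site of the window was the promoter of Oxsr1 (119322197 to 119323224), with 432, 451, 333 and 374 tags in KO and 402, 493, 471 and 409 in WT, and a log2 fold change of 0.05 ± 0.08 (SE, n = 4 each; limma adjusted p = 0.735). A Myd88 transcript start lay further inside the gene, 0.025 kb from the summit of a region with NF-kappaB, IRF and STAT5 matches (119339887 to 119340193). By summit distance this region was the Myd88 promoter, and it stood at percentile 65.7. It had 100, 101, 103 and 71 tags in KO and 108, 134, 108 and 89 in WT, and a log2 fold change of -0.01 ± 0.11 (SE, n = 4 each; limma adjusted p = 0.957). This region was chosen for its matches and not by the rule for named regions. None of the 7 Myd88 regions had even an unadjusted limma p under 0.05, which 26.25% of all fitted regions had.

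The Ticam1 promoter (chromosome 17, 56276632 to 56277229) had 379, 357, 357 and 336 tags in KO and 365, 463, 364 and 324 in WT. The ranges overlapped, and the log2 fold change was 0.14 ± 0.07 (SE, n = 4 each; limma adjusted p = 0.231, 95% confidence interval -0.01 to 0.29). With the main scaling, 57.6% of all fitted regions had positive log2 fold changes. Of the 9 fitted Ticam1 regions, 8 did, and 7 did with scaling by background tags or quantile normalisation. None of the 9 was called by limma, and 1 had an unadjusted p under 0.05, against 26.25% genome-wide. That region was the promoter of the neighbour Fem1a (56255821 to 56256954), which had 283, 294, 267 and 273 tags in KO and 263, 338, 286 and 233 in WT. The genotypes did not overlap there after centring (log2 fold change 0.22 ± 0.08, SE, n = 4 each; limma adjusted p = 0.053), and the region passed without WT replicate 4 (0.23, limma adjusted p = 0.0459). It is named although it falls outside the rule for named regions, and was chosen after its value was seen.

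Irak3, which encodes the inhibitory kinase, had the most consensus regions of the 10 genes, with 16, and 12 of them had a peak in every library. Its promoter (chromosome 10, 120201153 to 120201808) had 177, 132, 111 and 96 tags in KO and 144, 183, 138 and 125 in WT, a log2 fold change of -0.003 ± 0.11 (SE, n = 4 each; limma adjusted p = 0.99, 95% confidence interval -0.22 to 0.21). The strongest site of the window, an intronic region 38.4 kb into the gene (120163442 to 120163915), was even across the KO libraries, with 143, 140, 138 and 138 tags in KO and 154, 195, 170 and 128 in WT. It had a log2 fold change of 0.02 ± 0.09 (SE, n = 4 each; limma adjusted p = 0.922). For both sites the interval excluded a change of 1.5-fold. None of the 12 regions was called by limma, and 1 had an unadjusted p under 0.05, against 26.25% of all fitted regions.

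The classes of site differed in how many of their regions had positive log2 fold changes. Of the 20 fitted regions within 1 kb of a transcript start, 17 had positive values, with a median of 0.13, where 72.6% of 13265 such regions of the genome did. An unadjusted p under 0.05 was reached by 7 of the 20, all with more tags in KO, against 19.1% of all promoter regions in that direction, and none was called. Regions between genes were also mostly positive, with 16 of 21 and a median of 0.10, against 54.1% genome-wide. Intronic regions were mostly negative, with positive values at 6 of 21 and a median of -0.07, against 50.5% genome-wide. Over all 44 members outside promoters, 23 were positive. With scaling by background tags the positive members were 14 of 20 promoter, 14 of 21 intergenic and 1 of 21 intronic regions. That scaling moved the log2 fold changes of all regions by the same amount. The genome-wide shares under it were not counted, so these numbers cannot be set beside the shares above. Promoter regions of this set also held the higher levels, with a median percentile of 78.5 against 62.6 for introns and 54 between genes.

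The sequences within 100 bp of the summits were searched on both strands. The motifs were DR1 and DR4 (AGGTCA half-sites in the same direction, spaced by 1 or 4 bases, at most 2 mismatches), PU.1 (GAGGAAGT), CEBP (TTGCNNAA), AP-1 (TGANTCA), RUNX (TGTGGTT), STAT5 (TTCNNNGAA), NF-kappaB (GGANNTTCC), IRF (GAAANNGAA), E-box (CACGTG) and RBPJ (TGGGAA). PU.1 is the myeloid master factor, and STAT5 and RBPJ act downstream of GM-CSF and of Notch. A DR1 match was found in 2 of the 78 regions (2.56%, against 4.14% of all consensus regions) and a DR4 match in 3 (3.85% against 2.63%). PU.1 matches were in 5.13% against 10.7%, CEBP in 12.8% against 14.7%, RUNX in 6.41% against 8.98%, and RBPJ in 15.4% against 18.8%. The shares were 15.4% against 11.9% for AP-1, 8.97% against 5.98% for STAT5, 11.5% against 6.97% for IRF and 3.85% against 3.19% for NF-kappaB. The E-box was in 3.85% against 5.35%. Matches overlap in places, as IRF and STAT5 do near the Myd88 start, and a match is not a binding site. Among the promoters in the plot of promoter tags, that of Irak3 stood out in composition, with 22 CpG in its window of 201 bp and an observed to expected CpG ratio of 0.907. The Tlr9 and Tlr6 windows had 1 CpG each, and the remaining 6 had 3 to 10.

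The members were then compared with 37 other genes of the TLR pathway, whose windows held 255 consensus regions, of which 189 were found in every library. The comparison was made apart for autosomes and the X chromosome, because Tlr7, Tlr8, Tlr13, Irak1, Tab3 and Ikbkg are X-linked. On autosomes, 8 of 150 fitted regions had fewer and 7 had more tags in KO (limma), where 7.11% and 5.69% of all autosomal regions did. Of these 15, 11 lay at sites outside promoters, as did 34234 of all 47499 fitted regions. The largest decrease was 32.2 kb from the start of Ticam2, the bridging adaptor of TLR4 and TRIF (chromosome 18, 46542121 to 46542470), where 44, 43, 46 and 47 tags in KO stood against 98, 111, 83 and 89 in WT. The log2 fold change was -0.85 ± 0.14 (SE, n = 4 each; limma adjusted p = 1.21e-05), and the nearest start was that of Fem1c.

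An intron of Tlr5, the flagellin receptor (chromosome 1, 182958189 to 182958579), had 88, 80, 63 and 55 tags in KO and 127, 189, 135 and 122 in WT, a log2 fold change of -0.79 ± 0.11 (SE, n = 4 each; limma adjusted p = 1.42e-06). In the other direction, a region 8.4 kb upstream of Peli1, an E3 ligase gene, rose by 0.85 ± 0.15 (SE, n = 4 each; limma adjusted p = 3.63e-05), with 99, 107, 58 and 73 tags in KO and 47, 70, 63 and 37 in WT. The promoter of Tlr11 had 44, 43, 54 and 35 tags in KO and 25, 42, 32 and 19 in WT (0.83 ± 0.18, SE, n = 4 each; limma adjusted p = 0.00095). Of the 255 pathway consensus regions, only 1 in an Irak2 intron (chromosome 6, 113656877 to 113657237) had a peak in all WT and no KO libraries. That pattern was found at 0.82% of all consensus regions.

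On the X chromosome, 14 of 39 fitted regions had more tags in KO and 0 had fewer (limma; 19 had an unadjusted p under 0.05). They were 7 of 9 regions of Tlr7, 4 of 8 of Tlr8, and 1 each of Tlr13, Tab3 and Ikbkg. TLR7 and TLR8 are endosomal sensors of single-stranded RNA. Among all 1121 fitted X-linked regions, 10.7% had more tags in KO. Of 3337 regions of the genome called with fewer, 3298 were autosomal. An unadjusted limma p under 0.05 was reached by 26.25% of all fitted regions. The region 4.25 kb upstream of Tlr7 had 52, 59, 49 and 49 tags in KO and 34, 39, 40 and 26 in WT, with a log2 fold change of 0.81 ± 0.16 (SE, n = 4 each; limma adjusted p = 0.000285). At the Tlr7 start there were 85, 74, 69 and 73 tags in KO and 58, 81, 64 and 50 in WT (0.48 ± 0.13, SE, n = 4 each; limma adjusted p = 0.008).

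With scaling by background tags 3 X-linked regions were called, all 3 among the 14. The log2 fold changes of the 14 were 0.28 to 0.81 (median 0.54) with the main scaling and 0.23 to 0.75 (median 0.49) with this one. Regions of Xist, which is transcribed from the inactive X chromosome of females, also differed between the genotypes. Of its 3 consensus regions, 2 had a peak in 4 KO and 0 WT libraries, with 37, 38, 52 and 35 and with 22, 28, 42 and 32 tags, and the third had 29, 31, 33 and 18 tags in KO and 23 and 13 in 2 WT libraries. The part of sex in the X-linked results was not tested. The 10 genes described here are autosomal, and its part in their values was not tested either.

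**Figure D4:**
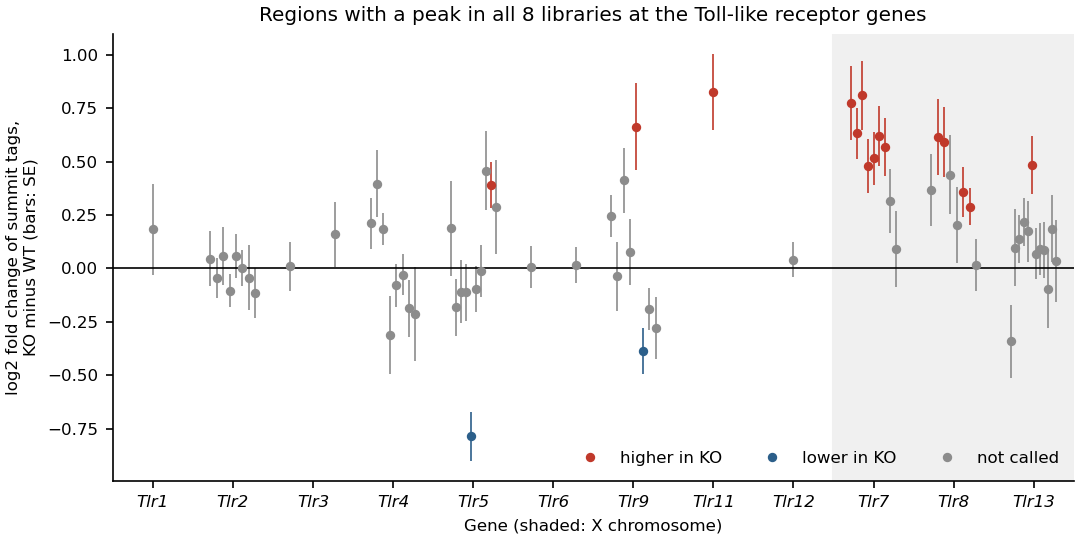
Points are log2 fold changes of summit tags (KO minus WT) with SE bars from limma at every region found in all 8 libraries in the window of each Toll-like receptor gene, from most upstream to most downstream within a gene, with X-linked genes shaded. Called regions cluster at Tlr7 (7 of 9) and Tlr8 (4 of 8), whereas the regions of Tlr2, Tlr4 and Tlr6 lie between -0.31 and 0.40 and none is called.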

How the data were processed

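ATAC-seq peak lists of 4 KO and 4 WT libraries were used, 1 list per library, grouped and numbered by the sample titles. Per the study's methods, the authors aligned reads to mm10 with Bowtie2 after trimming with Cutadapt, dropped duplicates and poorly mapped pairs, shifted reads to the transposase cut, extended them to 200 bp and called peaks with MACS3 at a q-value of 0.05. Each list deposited by the authors gives a fold enrichment (a ratio to the local background), a −log10 p-value and a −log10 q-value, a rounded score, which was not used, and the summit. A deeper library reaches the threshold with less enrichment, so the absence of a peak says only that the threshold was not reached.

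Summit tags were worked back as the whole number that gives both the fold and the p-value under the caller's Poisson model, within a relative error of 1e-05. Total reads are not part of the lists. The authors tested counts with edgeR. The lists hold no counts, so log2(tags + 0.5), centred on each library's median, was fitted with limma 3.58.1 (R 4.3.3; trended prior, two-sided) over all 47499 regions with a peak in every library, with Benjamini-Hochberg adjustment over all of them. The fit was tested on simulated data. Gene models were GENCODE M21 (basic) and reference bases were those of GRCm38.p6, the build of the files. Coordinates are 1-based.

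The members and gene lists were chosen with earlier results of these data known. The rule for named regions took, for each of the 10 genes, the strongest region that reached within 1 kb of a start, the region with most tags, and any called or genotype-specific region. That distance was taken from the edge of the region, and elsewhere from its summit. Of the other pathway genes it took the largest changes. Alternatives were 2 other scalings, another pseudocount, a tag minimum, a wider set of regions, a replicate block, merged replicates, each library left out, a stricter q-value, a stricter merge and lists of equal length. A further marker of other cell types is not reported here.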

Additional observations from a re-analysis of the deposited data

Results flagged for a closer look

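Each named region and 2 summaries per library were examined for a library far from the others of its genotype, in 38 sets of 4 libraries. Chance flags about 1 in 20 such sets. The one flagged was the single Tlr1 region in KO, where replicate 3 had 30 tags and the other 3 had 20 to 22. Its centred log2 value was 5.18 against 4.42 to 4.53, and its gap to the nearest library was 0.854 of the range of the group, above Dixon's 95% critical value for 4 samples.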

How the results depend on the processing

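Peaks under 6 to 9 tags could not be called, and missing peaks carry no value, so changes below that depth were not measurable. With scaling by background tags, 0 member regions were lower and 0 higher in KO, 3 and 2 autosomal pathway regions were lower and higher, 3 X-linked ones were higher, and 1988 and 575 of all regions were lower and higher. Leaving out each library gave 0 to 1 member regions lower (0 without KO replicate 2; without WT replicate 4 it was the Tlr4 intron at 66856995 in place of the Tlr9-window region) and 0 to 3 higher (0 without KO replicate 3 or WT replicate 1_3, 2 without KO replicate 1_3, 3 without WT replicate 4), and 0 to 2 present in WT only (2 without WT replicate 4). It gave 5 to 8 autosomal pathway regions lower (5 without KO replicate 2, KO replicate 3 or WT replicate 3) and 5 to 9 higher, 11 to 15 X-linked ones higher, and 2649 to 3216 of all regions lower and 1765 to 3192 higher (1765 without WT replicate 3). The deviations of same-numbered replicates correlated at 0.0555, 0.116 and 0.0368, not all above 0.1, so the numbers were not taken to pair the libraries, although each of these correlated best with its own number. With a replicate block, 3 member regions were higher in KO (the first Tlr9-window region and the Tlr4 and Fem1a promoters), the same Tlr4 intron was lower, 14 autosomal pathway regions were higher and 1 X-linked one was lower, the Tlr4 promoter passed (0.22, limma adjusted p = 0.0321), and the second called Tlr9-window region did not (-0.25, limma adjusted p = 0.131). For these changes the cause was not tested.

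Signs changed at 8 named regions, where no value under any of these alternatives passed the test. The Tlr6 upstream region, the Oxsr1 promoter and the Irak3 intron were at -0.039, -0.0054 and -0.036 with scaling by background tags, and at -0.049, -0.033 and -0.018 with quantile normalisation. With the block, the Tlr6 region was at -0.060, the strongest Cd14 region at 0.023, the Irak3 promoter at 0.061 and the Irak3 intron at -0.0017. With replicates 1_2 and 1_3 counted as 1 sample, the Tlr2 promoter was at -0.057 and the Oxsr1 promoter at -0.0090. Over the libraries left out in turn, values ran from -0.016 to 0.31 (Tlr1), -0.069 to 0.16 (Tlr2 promoter), -0.031 to 0.086 (Tlr6), -0.067 to 0.041 (strongest Cd14 region), -0.14 to 0.15 (Ly96), -0.14 to 0.082 (Irak3 promoter) and -0.018 to 0.037 (Irak3 intron).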
